A study of Homo sapiens with 12 samples.

Results

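The genes described here are ATF4 and 9 genes of the integrated stress response and the unfolded protein response: DDIT3, ASNS, TRIB3, CHAC1, SESN2, HSPA5, XBP1, HERPUD1 and DNAJB9. They were taken by name, and each was read from the array's probe sets that carry its symbol and no other. These were 10 of the 19775 genes with such a probe set, and 18 of the 54675 probe sets. The cells were HCT116, a human colorectal carcinoma line, held near the border of G1 and S phase by 2 blocks with thymidine (2 mM). They were then released with DMSO, the solvent control, and harvested at release, after 2, 4 and 6 h and hourly from 7 to 10 h. Other cells were released with nocodazole (0.1 mg/ml), which depolymerizes microtubules and so arrests mitosis, and were harvested hourly from 7 to 10 h. Every group, the DMSO controls included, had passed through both thymidine blocks, and no group of unsynchronized cells was compared here. A single Affymetrix array (U133 Plus 2.0) was measured for each of the 12 conditions.

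When unfolded proteins collect in the endoplasmic reticulum (ER), the sensors PERK, IRE1 and ATF6 start the unfolded protein response. PERK phosphorylates the translation factor eIF2alpha, which lowers protein synthesis in general and favours translation of the mRNA of ATF4. Amino acid shortage and other stresses reach the same factor through other kinases, and ATF4 then raises genes for amino acid supply, such as ASNS, and regulators such as DDIT3, TRIB3, CHAC1 and SESN2. IRE1 splices the mRNA of the transcription factor XBP1, and spliced XBP1 and cleaved ATF6 raise chaperones and degradation factors of the ER, among them HSPA5, HERPUD1 and DNAJB9. ATF4 and XBP1 are thus controlled in large part at translation and splicing, which a probe set signal does not show.

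The promoters of these genes carry short motifs through which the transcription factors act, and 200 bases upstream of the annotated start are shown for 5 genes. HSPA5, XBP1 and HERPUD1 are shown because their signals had similar shapes over the DMSO course, and ASNS and DNAJB9 because their signals were lower with nocodazole at 9 and 10 h. TRIB3 was also lower at these hours and is not shown. Letters that match a motif are in capitals, and the sequences are from RefSeq, GRCh38.p14, 5′ to 3′ on the strand of the gene. XBP1 and ASNS had another annotated start each, whose window held no match and is not shown.
HSPA5, chr9:125241344-125241543, minus strand: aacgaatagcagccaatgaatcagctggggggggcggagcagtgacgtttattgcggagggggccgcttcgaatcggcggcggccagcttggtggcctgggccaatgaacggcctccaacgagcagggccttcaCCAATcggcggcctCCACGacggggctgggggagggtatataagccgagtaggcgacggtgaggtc
XBP1, chr22:28800570-28800769, minus strand: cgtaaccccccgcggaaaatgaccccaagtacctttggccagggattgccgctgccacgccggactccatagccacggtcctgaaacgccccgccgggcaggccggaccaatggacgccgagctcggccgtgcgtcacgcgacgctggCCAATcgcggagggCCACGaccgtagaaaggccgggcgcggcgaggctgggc
HERPUD1, chr16:56931942-56932141, plus strand: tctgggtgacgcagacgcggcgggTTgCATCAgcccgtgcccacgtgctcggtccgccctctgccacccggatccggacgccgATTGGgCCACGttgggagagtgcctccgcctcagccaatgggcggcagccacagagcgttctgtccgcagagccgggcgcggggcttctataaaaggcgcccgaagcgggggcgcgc
ASNS, chr7:97872409-97872608, minus strand: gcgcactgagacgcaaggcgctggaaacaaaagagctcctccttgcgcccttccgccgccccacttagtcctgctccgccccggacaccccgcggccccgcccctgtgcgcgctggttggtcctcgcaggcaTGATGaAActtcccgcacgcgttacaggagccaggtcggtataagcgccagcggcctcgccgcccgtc
DNAJB9, chr7:108569674-108569873, plus strand: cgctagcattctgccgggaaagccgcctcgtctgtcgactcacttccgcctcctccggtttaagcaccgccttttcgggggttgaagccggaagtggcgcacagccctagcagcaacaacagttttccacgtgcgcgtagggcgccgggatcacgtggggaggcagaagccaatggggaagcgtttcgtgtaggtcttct
The ER stress element (ERSE), searched on both strands as CCAAT and CCACG with 9 bases between them, was matched 66 to 48 bases before the start of HSPA5 and 52 to 34 bases before that of XBP1. It was present in 0.0769% of 35116 promoter windows of 300 bases. The variant ERSE-II, searched as ATTGG and CCACG with 1 base between them, was matched 117 to 107 bases before the start of HERPUD1 and was present in 0.0541% of windows. The C/EBP-ATF response element (CARE), through which ATF4 binds, was searched as TGATGNAA. It was matched 68 to 61 bases before the start of ASNS and, on the other strand, 176 to 169 bases before that of HERPUD1 and 209 to 202 bases before that of CHAC1, with 3.62% of windows holding it. The XBP1 motif TGACGTG, the core of the unfolded protein response element (UPRE), was present in 1.97% of windows and in no window of the 10 genes. The DNAJB9 window held no match to the 4 motifs. Nor did any window of ATF4, DDIT3, TRIB3 and SESN2, which are not shown. No match overlapped another, and a match describes these letters only.

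Values are log2 signals as deposited. Of the 10 genes, 9 had a log2 signal of at least 5 on at least 2 arrays and were tested together with all 9130 genes that did. CHAC1 did not. Each gene was tested on its brightest probe set. The fit was limma with Benjamini-Hochberg adjustment over the 9130 genes, and a gene was called at an adjusted p under 0.05. As no condition had a replicate, the spread behind each test is that of neighbouring times, or of the treatment difference between hours, and it may hold real change with time. The epithelial markers EPCAM, KRT8, KRT18, KRT19 and CDH1 had log2 signals of at least 10.4 on every array, whereas the colon markers LGALS4 and CDX2 stayed under the filter. Of 8 markers of other cell types, 7 stayed under it on every array and COL1A1 was at 7.75 to 8.60. The DMSO 4 h array stood apart in its 18S rRNA probe sets, with a mean of 8.32 against 3.55 to 4.05 on the other DMSO arrays. The nocodazole arrays of 9 and 10 h stood apart in overall level. Their median over the 9130 genes was 8.88 and 8.76, against 9.12 to 9.56 on the DMSO arrays and 9.32 and 9.41 with nocodazole at 7 and 8 h.

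After release with DMSO, the signal of HSPA5 was higher from 7 h on, and those of XBP1 and HERPUD1 had a similar shape. HSPA5 encodes BiP, the main HSP70 chaperone of the ER. Its log2 signal was 14.62, 14.55, 14.45 and 14.61 at 0, 2, 4 and 6 h, and 15.11, 15.25, 15.07 and 15.21 at 7, 8, 9 and 10 h. The 4 late arrays were all above the 4 early arrays, with the lowest value at 4 h and the highest at 8 h, 0.80 apart. This cut between 6 and 7 h, used also for XBP1, ERN1 and HSP90B1 below, was not a tested window. The share of all genes so placed is not given, so the placement is a description only. The course was called for HSPA5 (limma, spline of time with 3 degrees of freedom, adjusted p = 0.00824). Leaving out any single time kept the call, with adjusted p of 0.00613 to 0.0430. Of the 9 tested genes, 3 were called over the course, HSPA5, DNAJB9 and SESN2, where 21.8% of all genes were called. Another HSPA5 probe set, at 5.08 to 6.49 from 0 to 6 h, was at 6.61 to 7.63 from 7 h on.

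XBP1 encodes the transcription factor of the IRE1 branch. Its log2 signal was 9.09, 9.05, 8.67 and 8.99 from 0 to 6 h, and 9.78, 9.62, 9.54 and 9.40 from 7 to 10 h. Here too the late arrays lay above all early arrays, with the lowest value at 4 h and the highest at 7 h. HERPUD1 encodes an ER membrane protein of the degradation pathway for misfolded proteins. Its log2 signal was 10.81, 10.41, 10.07 and 10.51 from 0 to 6 h, and 10.94, 10.83, 10.60 and 10.64 from 7 to 10 h. For HERPUD1 the 0 h array lay among the late arrays, so the early and late ranges overlapped. Neither course passed (limma, adjusted p = 0.0640 for XBP1 and 0.0531 for HERPUD1). HERPUD1 passed after quantile normalization (adjusted p = 0.00371) and with a filter at log2 7 (0.0352), and XBP1 with the filter at 7 alone (0.0347). After quantile normalization the highest HERPUD1 value was at 0 h (10.87), in place of 7 h as deposited. In the fit on averaged probe sets HERPUD1 also passed (0.0458). Its own values were unchanged there, as its other probe set was under the filter. The other XBP1 probe set, near the filter, ran the other way, at 4.84 to 5.06 from 0 to 4 h and at 4.59 to 4.77 from 6 h on, and with the mean of both probe sets adjusted p was 0.561. Over the 8 DMSO arrays Pearson's r was 0.91 between HSPA5 and XBP1, 0.83 between XBP1 and HERPUD1, and 0.68 between HSPA5 and HERPUD1. Without the 4 h array, where all 3 genes were lowest, r was 0.89, 0.68 and 0.52. These points share their arrays and their scaling, and r is given as a description.

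**Figure D1:**
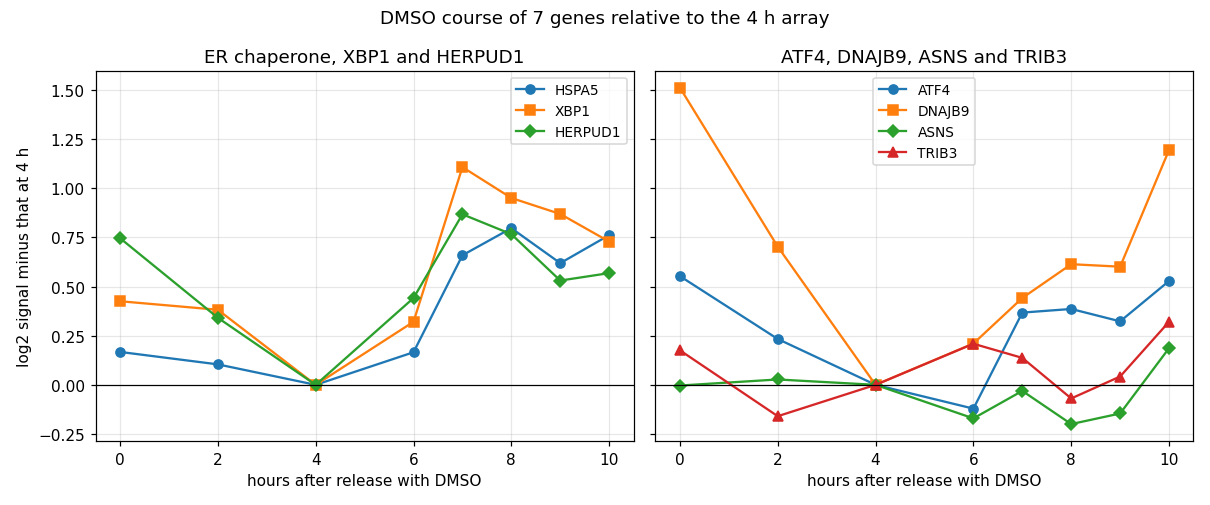
Log2 signal minus that of the 4 h array (y axis) against hours after release with DMSO (x axis), 1 array per point. On the left, HSPA5 and XBP1 are higher at 7 to 10 h than on every earlier array, while HERPUD1 at 0 h (10.81) is close to its 8 h value (10.83). On the right, DNAJB9 falls from 0 to 4 h and is higher again at 10 h, ATF4 has a shallower course of this kind with its lowest value at 6 h, and ASNS and TRIB3 span 0.39 and 0.48 log2 units.

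Compared as windows, 6 to 8 h with DMSO against 0 to 4 h, a contrast of later with earlier stages of the cycle, none of the 9 genes passed, where 6.05% of all genes did. At an unadjusted p under 0.05 there were 2, HSPA5 and XBP1, as were 2274 of all 9130 genes, or 24.9%. HSPA5 differed by 0.45 (SE 0.15, limma adjusted p = 0.108) and XBP1 by 0.52 (SE 0.22, adjusted p = 0.186). After quantile normalization these were 0.52 and 0.29 (adjusted p = 0.0766 and 0.327). With the mean of probe sets they were 0.43 and 0.13 (adjusted p = 0.349 and 0.629). Without the 6 h array HSPA5 (adjusted p = 0.00555) and XBP1 (adjusted p = 0.0303) were called, in a fit that called 1266 genes in place of 552. Without the 7 or the 8 h array adjusted p was 0.350 and 0.271 for HSPA5, and 0.512 and 0.378 for XBP1. From 6 to 8 h to 9 to 10 h, limma called none of the 9 genes and none of all 9130, with 0 and 470 at an unadjusted p under 0.05.

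On its brightest probe set, DNAJB9 was lowest at 4 h and higher at both ends of the same course. It encodes ERdj4, an ER co-chaperone that works with BiP and is a target of XBP1. Its log2 signal was 9.39 at 0 h, 8.58 at 2 h and 7.87 at 4 h, then 8.09, 8.32, 8.49 and 8.48 from 6 to 9 h, and 9.07 at 10 h. The range was 1.51 and the course was called (limma, adjusted p = 0.0110). The call rested on the first time, as adjusted p was 0.124 without the 0 h array. After quantile normalization the lowest value was at 7 h in place of 4 h. Its r over the 8 DMSO arrays was 0.23 with HSPA5 and 0.22 with XBP1. Another DNAJB9 probe set had a different shape, highest at 2 h (6.93) and lowest at 6 h (6.11). It was at 6.57 at 0 h and at 6.59 at 10 h. With probe sets averaged, the course was still called (limma, adjusted p = 0.0472).

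ATF4, the transcription factor of the integrated stress response, had a log2 signal of 12.65, 12.33, 12.10 and 11.98 from 0 to 6 h, and of 12.46, 12.48, 12.42 and 12.63 from 7 to 10 h. The 0 and 10 h arrays were highest and the 6 h array lowest, 0.67 apart, and the course did not pass (limma, adjusted p = 0.0692). It passed after quantile normalization (0.0304) and with the filter at 7 (0.0419). Its r with DNAJB9 over the DMSO arrays was 0.85, and 0.80 without the 4 h array.

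ASNS, TRIB3 and DDIT3, targets of ATF4, were not called over the DMSO course. ASNS, asparagine synthetase, stayed between 10.78 at 8 h and 11.16 at 10 h with DMSO. TRIB3, a pseudokinase that inhibits AKT and ATF4 itself, stayed between 8.52 at 2 h and 9.00 at 10 h. DDIT3 encodes CHOP, a transcription factor of stress-induced cell death, and its signal lay close to the filter, between 5.13 at 2 h and 5.58 at 10 h. Adjusted p over the course was 0.476, 0.877 and 0.554 (limma). All 3 were highest at 10 h as deposited, and after quantile normalization all 3 were highest at 0 h.

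SESN2 differed from the others by a single high array. It encodes sestrin 2, a leucine sensor and inhibitor of mTORC1 that is also a target of p53. Its log2 signal was 8.93 at 0 h, and 6.59, 6.56, 6.54, 6.66, 6.60, 6.57 and 6.56 from 2 to 10 h with DMSO. The 0 h array, harvested out of the thymidine block, was 2.37 above the median of the later DMSO arrays, or 5.16-fold on the linear scale. The later arrays lay between 6.54 and 6.66. The course was called (limma, adjusted p = 0.0113) through this array, as without it adjusted p was 0.997. Another SESN2 probe set was at 2.64 to 3.29 on all arrays, under the filter. Of all 9130 genes, 2 had a 0 h signal at least 2 log2 units above every later DMSO array, or 0.0219%, SESN2 and the early response gene EGR1 (13.79 against 8.91 to 9.93). That count was made after the SESN2 values had been seen.

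CHAC1, a glutathione-degrading enzyme and ATF4 target, was under the filter on every array, with 3.22 to 3.86 with DMSO and 3.26 to 3.37 with nocodazole. Its highest value was on the DMSO 4 h array, the one with the high 18S rRNA signal. No direction was read from it.

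**Figure D2:**
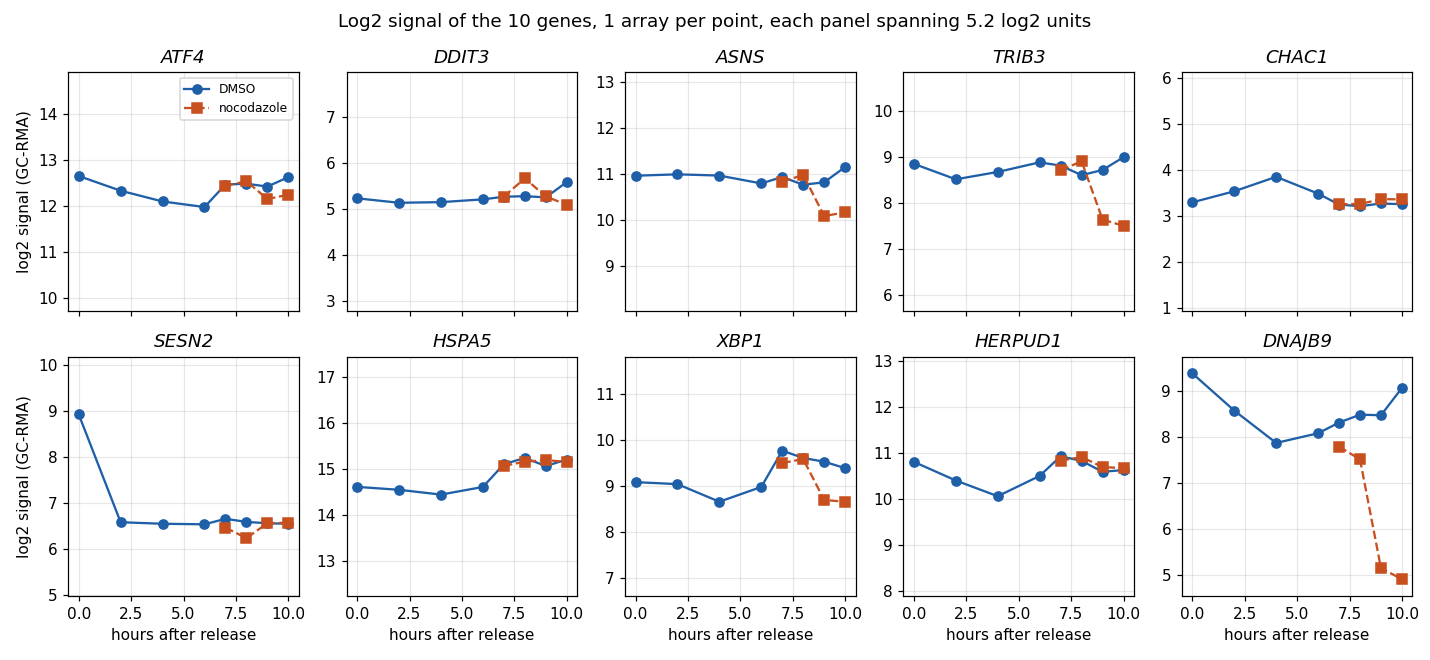
Log2 signal (y axis) of each of the 10 genes against hours after release (x axis), with 1 array per point, DMSO as blue circles and nocodazole as orange squares, and the same span on every y axis. DNAJB9, TRIB3 and ASNS with nocodazole drop below all DMSO arrays at 9 and 10 h, XBP1 reaches the level of the DMSO 4 h array, and HSPA5 and HERPUD1 with nocodazole follow DMSO. SESN2 is high at 0 h alone.

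At 7 and 8 h with nocodazole none of the 9 genes differed from DMSO by the test (limma, hour as block), where 0.0219% of all genes did. The only one at an unadjusted p under 0.05 was DNAJB9, as were 179 of all 9130 genes, or 1.96%. Its log2 signal with nocodazole was 7.79 at 7 h and 7.52 at 8 h, below DMSO by 0.52 and 0.97. The mean difference was -0.75 (SE 0.28, limma adjusted p = 1). The other 8 genes differed by -0.27 for SESN2 to 0.20 for DDIT3.

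At 9 and 10 h with nocodazole, DNAJB9, TRIB3, ASNS and XBP1 were lower than with DMSO, and HSPA5 and HERPUD1 were within 0.13 of it at each hour. These 4 of the 9 tested genes were called lower and none higher, where 40.8% of all genes were called lower and 4.42% higher, so the count of members is near the background. The whole distribution was shifted: the median difference over all genes was -0.44 as deposited and -0.0004 after quantile normalization, where 17.5% were called lower and 17.4% higher. Differences are therefore given also relative to the median of all genes. The shift was not the same at every level, as probe sets under the filter went up by 0.14 at 9 and at 10 h. Subtracting a single median therefore does not correct it evenly. Relative to the median and after quantile normalization, HSPA5 differed by 0.48 and 0.07, and ATF4 by 0.11 and -0.11. Of 6 cell cycle genes that were checked, 2 were called lower and the others, CCNB1, PLK1, CENPE and CCNG2, were not called. CCNE2, the G1/S cyclin E2, was at 10.31 and 10.83 with DMSO and at 3.26 and 3.83 with nocodazole, and was already lower at 7 and 8 h (-2.79, limma adjusted p = 0.000193). MCM5, a subunit of the replicative helicase, was at 11.17 and 11.57 with DMSO and at 9.95 and 9.80 with nocodazole (adjusted p = 0.000228). Nocodazole itself and the position in the cell cycle cannot be told apart here. In a bulk array, fewer cells with an RNA and less of it per cell cannot be told apart either.

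At 9 and 10 h the log2 signal of DNAJB9 was 5.15 and 4.91 with nocodazole, against 8.48 and 9.07 with DMSO. Both nocodazole arrays lay below all 8 DMSO arrays, the lowest of which was at 7.87. So placed were DNAJB9, TRIB3 and ASNS, 3 of the 9 genes, and 39.8% of all genes. The difference was -3.74 (SE 0.28, limma adjusted p = 1.43e-05), a 13.4-fold lower signal, and -3.30 relative to all genes. By p it was number 3 of 9130. After quantile normalization it was -3.47 (adjusted p = 0.000316). Another DNAJB9 probe set was at 4.16 and 4.67 with nocodazole at 9 and 10 h and at 6.11 to 6.93 on the DMSO arrays. Its signal was 5.00-fold lower than with DMSO at these hours. With nocodazole both probe sets were near or under the filter of 5, so the size of the fold is uncertain. The remaining DNAJB9 probe set was at 3.29 to 4.08 with DMSO and too low to read.

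The log2 signal of TRIB3 at these hours was 7.64 and 7.51 with nocodazole, against 8.72 and 9.00 with DMSO. Both were below all 8 DMSO arrays. The difference was -1.28 (SE 0.24, limma adjusted p = 0.00177), a 2.44-fold lower signal, and -0.85 relative to all genes. It was -0.65 after quantile normalization (adjusted p = 0.0147). Without the 10 h arrays it was -1.08 (adjusted p = 0.0506). The other TRIB3 probe set was at 6.08 to 6.28 with DMSO, and at 5.47 and 6.15 with nocodazole at 9 and 10 h, so that only the 9 h array lay below the DMSO range.

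That of ASNS was 10.10 and 10.18 with nocodazole, against 10.83 and 11.16 with DMSO. Both were below all 8 DMSO arrays. The difference was -0.86 (SE 0.18, limma adjusted p = 0.00339), a 1.81-fold lower signal, and -0.42 relative to all genes. It was -0.36 after quantile normalization (adjusted p = 0.0183). The other ASNS probe set was under the filter on every array, at 2.79 to 3.32.

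For XBP1 the log2 signal was 8.70 and 8.67 with nocodazole, against 9.54 and 9.40 with DMSO, after 9.51 and 9.59 with nocodazole at 7 and 8 h. These values were at the level of the lowest DMSO array, that of 4 h (8.67). The difference was -0.78 (SE 0.21, limma adjusted p = 0.0115), or -0.34 relative to all genes. It did not pass after quantile normalization (-0.16, adjusted p = 0.425) or with the mean of both probe sets (-0.07, adjusted p = 0.833). The other XBP1 probe set, near the filter, was higher with nocodazole, at 5.38 and 5.26 against 4.59 to 5.06 on the DMSO arrays.

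As deposited and on their brightest probe sets, HSPA5 and HERPUD1 did not follow XBP1 and DNAJB9 at these hours. HSPA5 was at 15.20 and 15.16 with nocodazole and at 15.07 and 15.21 with DMSO, a difference of 0.04 (SE 0.10, limma adjusted p = 0.780). HERPUD1 was at 10.70 and 10.68 with nocodazole and at 10.60 and 10.64 with DMSO, a difference of 0.07 (SE 0.18, adjusted p = 0.758). Relative to all genes these were 0.48 and 0.51. The dimmer HSPA5 probe set was lower with nocodazole, at 6.57 and 6.58 against 7.01 and 7.63, so the probe sets disagreed, and with their mean the difference was -0.35 (adjusted p = 0.126). That of HERPUD1 was under the filter at 2.71 to 3.17. After quantile normalization HERPUD1 was called higher (0.54, adjusted p = 0.00522) and HSPA5 was not (0.07, adjusted p = 0.184).

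ATF4 was at 12.15 and 12.24 with nocodazole at 9 and 10 h and at 12.42 and 12.63 with DMSO, within the range of the DMSO course. The difference was -0.33 (SE 0.14, limma adjusted p = 0.0768) as deposited, 0.11 relative to all genes, and -0.11 after quantile normalization (adjusted p = 0.262). DDIT3 was at 5.27 and 5.09 against 5.25 and 5.58, a difference of -0.24 (SE 0.25, adjusted p = 0.462). SESN2 was at 6.57 and 6.58 against 6.57 and 6.56, a difference of 0.01 (SE 0.25, adjusted p = 0.971). After quantile normalization these were -0.03 and 0.56, and neither passed (adjusted p = 0.925 and 0.107).

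**Figure D3:**
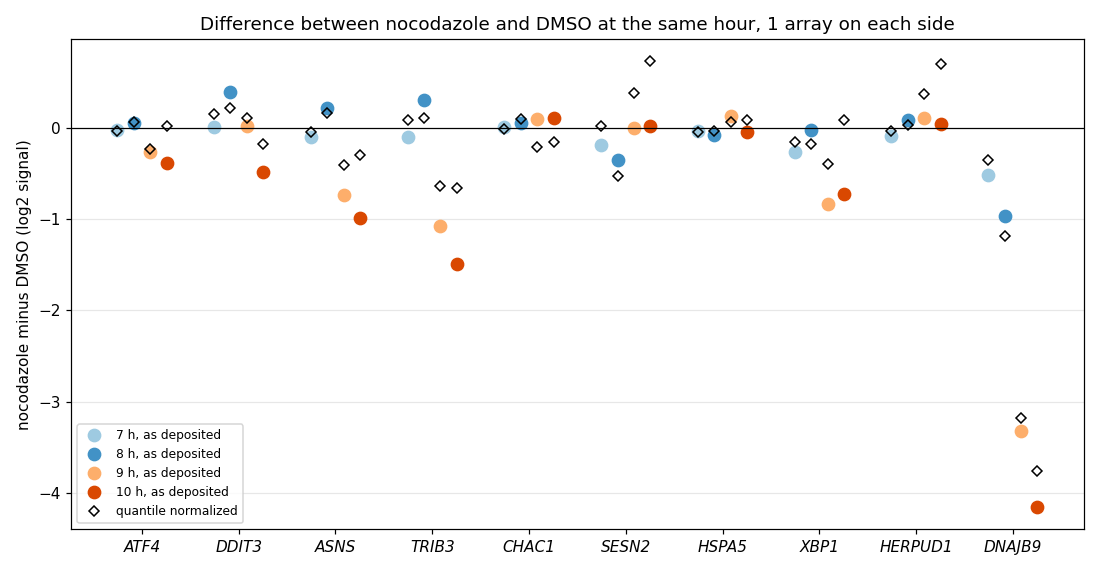
Log2 signal with nocodazole minus that with DMSO at the same hour (y axis) for the 10 genes (x axis), 1 array on each side. Filled circles are the values as deposited, coloured by hour, and open diamonds the same after quantile normalization over all probe sets. DNAJB9 is lower at every hour and by more than 3 at 9 and 10 h on either scale. TRIB3 and ASNS are lower at 9 and 10 h on either scale, whereas ATF4 and XBP1 at 10 h lie above 0 once normalized. CHAC1 was under the filter and not tested.

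The difference between nocodazole and DMSO itself changed from 7 and 8 h to 9 and 10 h for 3 of the 9 genes, all towards lower, where 10.3% of all genes changed that way and 12.3% either way. The change was -2.99 for DNAJB9 (SE 0.40, limma adjusted p = 0.00266), -1.39 for TRIB3 (SE 0.35, adjusted p = 0.0251) and -0.91 for ASNS (SE 0.26, adjusted p = 0.0391), with a median of -0.44 over all genes. After quantile normalization, where 3.73% of all genes changed towards lower, DNAJB9 was still called (-2.70, adjusted p = 0.0173), and TRIB3 (-0.75, adjusted p = 0.0712) and ASNS (-0.41, adjusted p = 0.0832) were not. The ASNS change also missed the threshold without the intensity trend (adjusted p = 0.0710) and without the arrays of 7, 8 or 10 h (0.144, 0.614 and 0.0520). That of TRIB3 missed it with the mean of both probe sets (-0.85, adjusted p = 0.0853) and without the arrays of 8 or 10 h (0.154 and 0.133). For XBP1 the change was -0.63 (SE 0.30, adjusted p = 0.152).

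The rest of the pathway was read from 9 lists with 129 genes, of which 113 were tested. With nocodazole at 9 and 10 h, 55 of them were lower and none higher, or 48.7% lower against 40.8% of all genes. Their median difference was -0.45 against -0.44 for all genes. After quantile normalization 24 were lower and 8 higher, or 21.2% and 7.1% against 17.5% and 17.4% of all genes. At 7 and 8 h limma called 0 of the 113, with 2 at an unadjusted p under 0.05. Over the DMSO course 25 were called, or 22.1% against 21.8% of all genes.

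Upstream of ATF4, 10 of 15 eIF2alpha kinases, subunits and phosphatase genes were lower with nocodazole at 9 and 10 h, with a median of -0.48, and 5 were lower after quantile normalization. Of all genes, 40.8% were called lower, with a median of -0.44, and 17.5% were lower after quantile normalization. EIF2AK3, which encodes the sensor kinase PERK, was at 6.84 and 5.84 against 7.71 and 7.83 with DMSO (-1.43, SE 0.29, limma adjusted p = 0.00271). PPP1R15A, which encodes GADD34, the stress-induced subunit of an eIF2alpha phosphatase, was at 7.76 and 7.33 against 8.55 and 9.07 (-1.26, SE 0.27, adjusted p = 0.00335). EIF2B4, a subunit of the exchange factor of eIF2, and EIF2AK4, the amino acid sensor kinase GCN2, were lower by 1.17 and 0.77 (adjusted p = 0.00127 and 0.0133), EIF2AK4 not after quantile normalization (-0.21, adjusted p = 0.170). Among bZIP partners and stress factors 5 of 7 were lower, with a median of -0.73. CEBPG, a dimer partner of ATF4, was at 7.65 and 7.24 against 8.89 and 9.36 (-1.68, SE 0.27, adjusted p = 0.000666). ATF2 and CEBPB differed by -1.05 and -0.73 (adjusted p = 0.00427 and 0.00599). After quantile normalization 2 of the 7 were lower and 1 higher, and ATF2 was not called (-0.40, adjusted p = 0.134). ATF3, a stress-induced repressor, was called over the DMSO course (adjusted p = 0.0111), from 11.22 at 0 h to 8.89 at 6 h and 10.57 at 10 h.

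Of 14 genes of amino acid synthesis and transport, 6 were lower with nocodazole at 9 and 10 h, with a median of -0.39, and 5 after quantile normalization. The shares of all genes were 40.8% and 17.5%, and their median as deposited was -0.44. Over the DMSO course 7 were called, where 21.8% of all genes were. PHGDH, which starts serine synthesis, was at 7.50 and 7.88 against 8.81 and 9.59 (-1.51, SE 0.26, limma adjusted p = 0.000918). SLC38A2, a transporter of small neutral amino acids, and CTH, which makes cysteine from cystathionine, differed by -1.19 and -1.41 (adjusted p = 0.00120 and 0.00188). SLC7A5, the light chain of the leucine transporter LAT1, rose over the DMSO course from 12.56 at 0 h to 13.74 at 10 h (adjusted p = 0.00350) and was at 13.42 and 13.38 with nocodazole at 9 and 10 h. For tRNA synthetases and the tRNA exporter XPOT, 6 of 12 were lower, with a median of -0.49 and a range among the named WARS1, LARS1, YARS1 and TARS1 of -0.82 to -0.56. After quantile normalization 2 were lower, and WARS1 (-0.25, adjusted p = 0.105) and LARS1 (-0.16, adjusted p = 0.165) were not called. None of the 12 was called over the course, with 1 at an unadjusted p under 0.05.

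Among 10 other targets of ATF4 and DDIT3, 6 were lower with nocodazole at 9 and 10 h, with a median of -0.58, and after quantile normalization 4 were lower and 1 higher. Of all genes 40.8% were lower, with a median of -0.44, and after quantile normalization 17.5% were lower and 17.4% higher. Over the DMSO course 4 were called, where 21.8% of all genes were. Among them was GDF15, a stress-induced cytokine, which fell from 13.03 at 0 h to 10.86 at 8 h (limma adjusted p = 0.00145). CDKN1A, the CDK inhibitor p21, fell from 13.98 at 0 h to 12.42 at 8 h (adjusted p = 0.00147). GADD45A, a DNA damage response gene, was lower with nocodazole at 9.89 and 9.82 against 10.76 and 11.22 (-1.14, SE 0.19, adjusted p = 0.000973), and VEGFA, the angiogenic growth factor, by 1.32 (adjusted p = 0.00233).

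On the ER side, ERN1, which encodes the sensor IRE1 that splices XBP1, was called over the DMSO course (limma adjusted p = 0.00949). Its log2 signal was 6.70, 5.33, 5.88 and 6.71 from 0 to 6 h, and 8.24, 7.56, 7.70 and 7.44 from 7 to 10 h, so that its late arrays, as those of XBP1, lay above all early ones. It was the 1 of 6 sensors and processing genes called over the course, where 21.8% of all genes were. With nocodazole at 9 and 10 h it was at 7.04 and 6.65 (-0.72, SE 0.30, adjusted p = 0.0634), and 3 of the 6 were lower, the proteases MBTPS1 and MBTPS2 that cleave ATF6 and the RNA ligase RTCB that joins spliced XBP1, by 0.69 to 0.83. Of all genes 40.8% were called lower. After quantile normalization 1 was lower and 1 higher, and MBTPS1 (-0.18, adjusted p = 0.150) and MBTPS2 (-0.26, adjusted p = 0.0891) were not called.

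Of 18 ER chaperones and folding enzymes, 4 were called over the DMSO course, where 21.8% of all genes were called, so this count is near the background. HSP90B1, the ER paralog of HSP90, was at 10.86 to 11.33 from 0 to 6 h and at 12.01 to 12.37 from 7 to 10 h (limma adjusted p = 0.00859), with the late arrays above all early ones as for HSPA5. SDF2L1, an ER protein that works with BiP, was at 8.81 to 9.14 and then at 9.48 to 10.14 (adjusted p = 0.0262). PPIB, the ER cyclophilin B, ran the other way, from 14.53 to 14.74 early to 14.10 to 14.32 late (adjusted p = 0.0166). With nocodazole at 9 and 10 h, 6 of the 18 were lower, where 40.8% of all genes were, with a median of -0.27 against -0.44 for all genes. After quantile normalization 1 was lower and 3 were higher, HSP90B1 among them (0.26, adjusted p = 0.0297, against 0.01 as deposited). HSPA13, an ER-associated HSP70, was lower by 1.28 (SE 0.27, adjusted p = 0.00329).

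Of 15 genes of ER-associated degradation, 9 were lower with nocodazole at 9 and 10 h, with a median of -0.46, and after quantile normalization 1 was lower and 1 higher. Of all genes 40.8% were lower, with a median of -0.44, and after quantile normalization 17.5% were lower and 17.4% higher. SEL1L, the adaptor of the ligase complex in which HERPUD1 acts, was lower by 0.87 (SE 0.22, limma adjusted p = 0.00733), and the ubiquitin-conjugating enzyme UBE2J1 by 0.97 (adjusted p = 0.00260). UBXN4, which recruits the ATPase VCP to the ER, was lower by 0.78 (adjusted p = 0.00634). SEL1L and UBXN4 were not called after quantile normalization (-0.27 and -0.23, adjusted p = 0.113 and 0.161). UBE2G2, another conjugating enzyme of this pathway, was called over the course (adjusted p = 0.0149), from 10.04 at 0 h to 11.62 at 10 h. Of 16 genes of ER translocation and transport, 4 were lower, with a median of -0.33, and after quantile normalization 3 were lower and 1 higher. SEC61A1, the channel subunit, was at 10.77 and 10.59 against 11.44 and 11.80 (-0.94, SE 0.18, adjusted p = 0.00176). SEC63, a J-domain protein that brings BiP to the channel, was lower by 1.37 (adjusted p = 0.00198) and SSR2, a translocon-associated subunit, by 0.59 (adjusted p = 0.0130). SEC62, a partner of SEC63, was called over the course (adjusted p = 0.0460), from 10.59 at 0 h to 11.54 at 10 h.

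**Figure D4:**
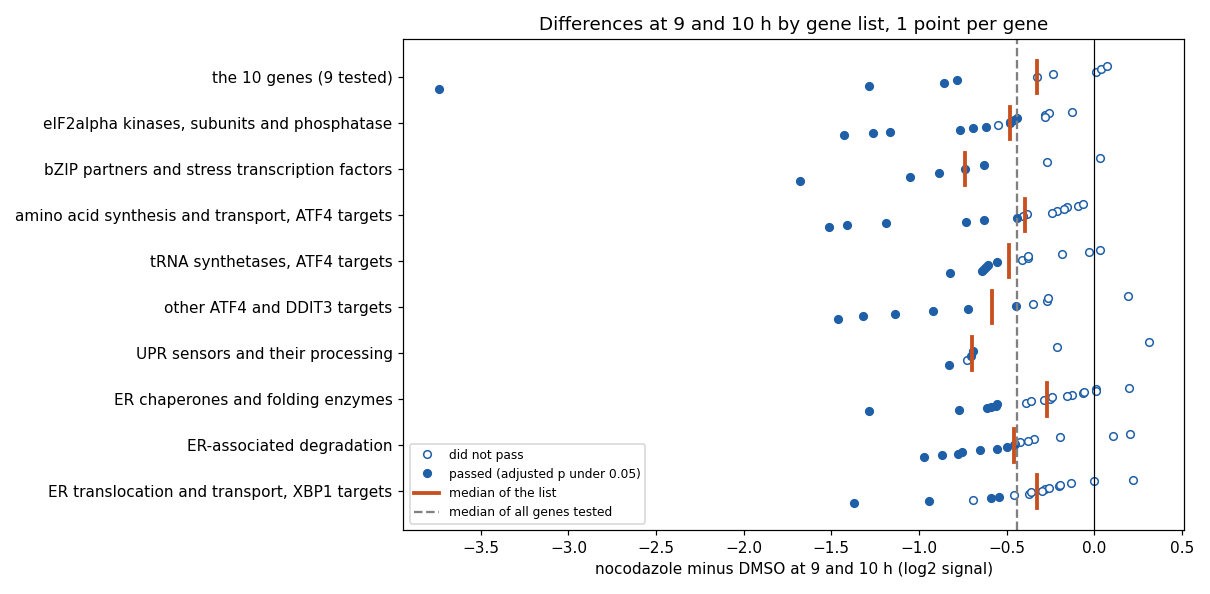
Nocodazole minus DMSO at 9 and 10 h in log2 signal (x axis) for each tested gene of the 10 described genes and of the 9 pathway lists (y axis), 1 point per gene, filled where the limma adjusted p was under 0.05. Orange bars are list medians, -0.27 for ER chaperones and -0.73 for bZIP partners at the extremes of the 9 lists, and the dashed line is the median of all 9130 genes at -0.44. DNAJB9 at -3.74 lies apart from every other point.

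The genes with the most similar profile over the 12 arrays were found by Pearson's r on the log2 signal, as a description. For ATF4 they were OTUD3, PRKCSH and CPSF7, with r of 0.94, 0.93 and 0.92. For DDIT3 they were ERCC2, TRADD and POLE, with 0.93, 0.92 and 0.90. For HSPA5 they were PRRC2B, HAPSTR1 and DNAJA1, with 0.98, 0.98 and 0.97, and for XBP1 EPHB4, VCPKMT and DHX57, with 0.96, 0.95 and 0.94. Without the nocodazole arrays of 9 and 10 h, these r were 0.91 to 0.99 over 10 arrays. The arrays share time and scaling.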

How the data were processed

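Total RNA of synchronized HCT116 cells was hybridized to 12 Affymetrix U133 Plus 2.0 arrays, 8 with DMSO and 4 with nocodazole. The authors computed the deposited log2 values with GC-RMA, as the submitters' processing notes and the methods state, with no version given. That the logarithm is to base 2 was inferred from how far the values reach. GC-RMA estimates background from probe sequence and compresses low signals, and the number of arrays limits the precision. All 12 columns were used.

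Of 54675 probe sets, 41097 carried 1 gene symbol in the platform annotation, 1801 several and 11777 none. Probe sets had to reach a log2 signal of 5 on 2 or more arrays, and where a gene had several the brightest on average was used, leaving 9130 genes. Tests were made in R 4.3.3 with limma 3.58.1 and a variance prior that follows intensity, checked on simulated data: a natural spline of time with 3 degrees of freedom over the DMSO arrays, window means (0 to 4, 6 to 8, 9 to 10 h), and nocodazole against DMSO at 7 to 10 h with the hour as block. The simulated noise was independent between arrays, with no shift in overall level, so that check did not cover such features of these arrays. The hours of the labels pair the arrays. Promoter windows (250 bases before to 50 after the start) were from RefSeq, GRCh38.p14, and all 10 genes had at least 1.

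The genes and the lists were chosen with earlier results of these data known. The genes named were the 10 genes, up to 4 genes of each list with the smallest p among those that passed, and the 3 nearest profiles of ATF4, DDIT3, HSPA5 and XBP1. Alternatives were quantile normalization, no filter or one at 7, and averaging those probe sets of a gene that passed the filter. Others were a prior without the intensity trend, a stiffer spline (2 degrees of freedom), no hour block, and each time left out. Separate fits to the arrays of each pair of hours (7 and 8, 9 and 10 h) were added after seeing the data. Tables were made in Python 3.11.15 (pandas 2.3.3, numpy 2.4.6) and plots in matplotlib 3.10.9.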

Additional observations from a re-analysis of the deposited data

Results flagged for a closer look

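For 3 genes the difference between nocodazole and DMSO changed from 7 and 8 h to 9 and 10 h by the test of that change (limma, adjusted p under 0.05). The change was -2.99 log2 units for DNAJB9, with nocodazole lower at 4 of 4 hours. It was -1.39 for TRIB3 and -0.91 for ASNS, with nocodazole lower at 3 of 4 hours for each. The nocodazole arrays of 9 and 10 h also had lower medians over all genes, and the change over all genes had a median of -0.44. After quantile normalization the change was still called for DNAJB9 and not for TRIB3 and ASNS. The part of the shift in overall level in the changes of TRIB3 and ASNS was not tested further.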

How the results depend on the processing

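Of 636 recomputed values of the 9 genes, 584 kept direction and side of the threshold, 12 passed where the reported value did not, 14 no longer passed and 26 changed sign, none of them called under either setting. Signs turned after quantile normalization for DDIT3 (-0.13) and TRIB3 (-0.19) at 6 to 8 h, TRIB3 (-0.010) and XBP1 (-0.11) from 6 to 8 h to 9 to 10 h, and XBP1 (0.0098) in the change of the nocodazole difference. With the mean of probe sets they turned for XBP1 from 6 to 8 h to 9 to 10 h (-0.022), TRIB3 with nocodazole at 7 and 8 h (-0.0061), HSPA5 at 9 and 10 h (-0.35), and HSPA5 (-0.34) and XBP1 (0.069) in the change. Leaving out each time gave ranges across 0 at 6 to 8 h for ATF4 (-0.18 to 0.11), SESN2 (-1.16 to 0.029) and DNAJB9 (-0.69 to 0.070). From 6 to 8 h to 9 to 10 h these were ASNS (-0.012 to 0.32), TRIB3 (-0.050 to 0.23), HSPA5 (-0.038 to 0.28) and XBP1 (-0.23 to 0.16). With nocodazole at 7 and 8 h they were ATF4 (-0.028 to 0.053), ASNS (-0.11 to 0.22), TRIB3 (-0.10 to 0.30) and HERPUD1 (-0.10 to 0.085), at 9 and 10 h DDIT3 (-0.49 to 0.020) and HSPA5 (-0.051 to 0.13), and in the change HERPUD1 (-0.013 to 0.17). Genes called over the DMSO course numbered 3663 after quantile normalization against 1993, with 5 of the 9 genes called after it against 3, and 5 of the 7 genes tested with the filter at 7, where DDIT3 and SESN2 were not tested. For 6 to 8 h against 0 to 4 h they numbered 884 after quantile normalization and 65 with no filter, against 552. For nocodazole at 7 and 8 h they numbered 17 after quantile normalization, 19 with the filter at 7, 4 with the mean of probe sets, 1 with no hour block and 25 from the arrays of these hours alone, against 2. At 9 and 10 h they numbered 13347 with no filter, 9211 of them higher, against 4132. Probe sets under the filter were shifted up on these arrays, by 0.14 at 9 and at 10 h. For the change between these hours they numbered 711 after quantile normalization, 10073 with no filter, 1742 with the filter at 7, 1714 with the mean of probe sets and 1700 with no hour block, against 1122, and quantile normalization left 1 of the 3 genes. Leaving out each time gave 862 to 2220 genes and 1 to 3 of the 9 genes for the course, 0 to 1266 and 0 to 2 for 6 to 8 h, 0 to 1 and 0 for 9 to 10 h, 27 to 82 and 0 for nocodazole at 7 and 8 h, 1451 to 5214 and 3 to 5 at 9 and 10 h, and 297 to 4047 and 1 to 4 for the change. In the nocodazole fits, the lone remaining hour was assumed to vary like the others. Without an hour block, ATF4 passed at 9 and 10 h (adjusted p = 0.0350), as it did without the arrays of 9 h (0.00863). Where not stated here, the cause was not tested. With 1 array per condition, log2 differences near the standard errors given were not detectable, and larger ones could also be missed. At 6 to 8 h against 0 to 4 h, HSPA5 differed by 0.45 (SE 0.15) and was not called.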
